A study of Mus musculus with 6 samples.

Results

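The unfolded protein response was followed in the livers of mice given poloxamer P-407 through 10 genes, of which 8 belong to its ATF6/XBP1 side (Herpud1, Hspa5, Manf, Creld2, Sdf2l1, Hyou1, Pdia4 and Xbp1) and 2 to its ATF4 side (Atf4 and Ddit3). The genes were chosen by name, with earlier results of these data known, and every array feature annotated to one of them alone was taken. All 10 were measured on the oligonucleotide array, out of 16871 genes with a value on all 3 arrays, and 5 of them on the cDNA array (Herpud1, Hspa5, Manf, Pdia4 and Atf4), out of 5011 genes. Each member had 1 feature per array type.

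Treated animals were 12 C57BL/6 females that were 7 weeks old when dosing began. Intraperitoneal P-407 was given at 0.5 g/kg, 1 injection per 3 days, and livers were collected at day 96. The control group was 4 mice of the same strain, sex, age and low-fat chow (4.4% fat), injected with saline on the same schedule. RNA of the treated livers was combined into 3 pools and RNA of the control livers into 1 pool. Each treated pool, labelled with Cy5, was read against the control pool, labelled with Cy3, on 1 oligonucleotide and 1 cDNA array, and no array had the dyes exchanged. P-407 is a surfactant copolymer used to raise blood lipids in mice, and the pools average over animals, so variation between single mice is not measured.

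Values are log2 ratios of treated over control, with each array's median set to 0, so a negative value is less RNA in the treated livers. The log base and the direction are not stated with the deposited values. They were read as log2 because the largest absolute values, 6.30 on the oligonucleotide array and 6.34 on the cDNA array, exceed the log10 limit of 4.82 of a scanner reading, and their direction was taken from how the samples are titled and dyed. A natural log would make every fold change larger. With 1 control pool, variation among control mice does not enter the tests, and without exchanged dyes a gene's dye effect cannot be told apart from treatment. In whole liver, fewer cells of a type and less RNA per cell cannot be told apart either.

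The unfolded protein response adjusts the endoplasmic reticulum (ER) to its load of unfolded protein, which is high in hepatocytes because they secrete most plasma proteins. The sensor ATF6 is cut in the Golgi to release a transcription factor, and the sensor IRE1 (gene Ern1) splices Xbp1 mRNA into the form that encodes another. Both factors drive genes for chaperones, folding enzymes and ER-associated degradation. The sensor PERK (gene Eif2ak3) phosphorylates the translation factor eIF2alpha, which slows translation in general and favours that of ATF4, a factor that drives amino acid genes and Ddit3.

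The ER stress response element (ERSE) is CCAAT, any 9 bases, then CCACG, and its variant ERSE-II is ATTGG, any 1 base, then CCACG. ATF6 and XBP1 are known to act through both. The unfolded protein response element UPRE was searched as TGACGTGG, and the amino acid response element CARE, a motif bound by ATF4, as TGATGNAA. ERSE and ERSE-II share the letters CCACG. Promoters come from RefSeq (GRCm38.p6), which gave 8 of the 10 members, and the 250 bases before the annotated start were searched on both strands. The sequences below are the 3 promoters that held a match, with the match in capitals, and that of Xbp1, which held none.
Hspa5: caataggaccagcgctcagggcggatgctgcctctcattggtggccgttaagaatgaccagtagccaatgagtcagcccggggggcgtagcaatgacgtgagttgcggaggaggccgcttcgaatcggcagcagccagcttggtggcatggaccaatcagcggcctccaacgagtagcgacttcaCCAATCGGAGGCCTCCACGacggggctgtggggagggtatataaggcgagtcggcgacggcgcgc
Creld2: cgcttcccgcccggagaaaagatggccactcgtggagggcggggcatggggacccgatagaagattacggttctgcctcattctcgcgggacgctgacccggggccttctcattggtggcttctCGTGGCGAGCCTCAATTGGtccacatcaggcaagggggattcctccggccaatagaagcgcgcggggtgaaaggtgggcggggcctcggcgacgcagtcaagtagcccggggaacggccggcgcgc
Herpud1: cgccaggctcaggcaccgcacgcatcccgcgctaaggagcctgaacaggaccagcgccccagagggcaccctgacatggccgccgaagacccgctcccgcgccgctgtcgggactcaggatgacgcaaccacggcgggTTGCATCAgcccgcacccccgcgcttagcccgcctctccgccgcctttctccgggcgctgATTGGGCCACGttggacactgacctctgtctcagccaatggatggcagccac
Xbp1: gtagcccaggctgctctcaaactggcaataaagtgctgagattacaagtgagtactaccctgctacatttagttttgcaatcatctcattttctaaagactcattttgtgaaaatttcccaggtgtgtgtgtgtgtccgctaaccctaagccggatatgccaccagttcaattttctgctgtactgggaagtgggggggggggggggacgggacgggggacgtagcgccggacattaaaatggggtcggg

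The Hspa5 promoter (chr2:34771840-34772089, plus strand) held an ERSE 65 to 47 bases upstream of the start. The Creld2 promoter (chr15:88819396-88819645, plus strand) held an ERSE on the reverse strand 126 to 108 bases upstream. The Herpud1 promoter (chr8:94386179-94386428, plus strand) held an ERSE-II 52 to 42 bases upstream and a CARE on the reverse strand 112 to 105 bases upstream. The promoters of Xbp1 (chr11:5520391-5520640, plus strand), Pdia4, Sdf2l1, Atf4 and Ddit3 held no exact match to any of the 4 motifs. Among 32851 promoters of the same length, 0.113% held an ERSE, 0.0304% an ERSE-II, 0.563% a UPRE and 3.45% a CARE. A match describes the letters and not binding.

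Each of the 10 genes was compared between treated and control livers in 1 fit over the whole oligonucleotide array. Of the 10 members, 6 were lower (Herpud1, Hspa5, Manf, Creld2, Pdia4 and Atf4), 1 was higher (Ddit3) and 3 did not pass the threshold, an adjusted p of 0.05 from limma with Benjamini-Hochberg adjustment. Over all genes tested, 21.4% were lower and 22% were higher (43.4% in either direction). The 4 members with the largest decreases lay among the lowest 1.90% of genes. All 3 pools lay below 0 for the 6 lower members, as they did for 34.1% of all genes, and above 0 for Ddit3, as for 35.1%. A one-sample test without limma's shared prior, which borrows the spread of other genes, called 40 genes in all and 0 members, with 5 members at an unadjusted p below 0.05.

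Hspa5 encodes BiP, the main ER chaperone and the protein that holds the sensors inactive. Its log2 ratio was -0.72, -0.75 and -0.61 in pools 1, 2 and 3 of treated livers over the control pool. All 3 pools lay below 0 and close together, with a mean of -0.69 ± 0.08 (SD, n = 3), a level 1.62-fold lower in treated livers (95% interval -0.81 to -0.58, adjusted p = 5.31e-04). Only 0.812% of all genes lay at or below it. Hyou1 encodes the ER chaperone that serves as a nucleotide exchange factor for BiP. It had log2 ratios of 0.04, 0.10 and -0.30, with pools 1 and 2 above 0 and pool 3 below, a mean of -0.05 ± 0.21 and an interval of -0.25 to 0.15 (adjusted p = 0.629).

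Manf, a small secreted ER protein that binds BiP, had log2 ratios of -0.65, -0.76 and -0.58. Its mean of -0.66 ± 0.09 was close to that of Hspa5, 1.58-fold lower in treated livers (adjusted p = 6.44e-04). Creld2, an ER-resident protein with disulfide-exchange activity, had log2 ratios of -0.55, -0.49 and -0.54. These were the most tightly grouped of the lower members, with a mean of -0.53 ± 0.03 and a level 1.44-fold lower (adjusted p = 6.85e-04).

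Sdf2l1, which associates with the ER chaperone ERdj3, had log2 ratios of 0.07, -0.11 and 0.09. The pools straddled 0, with a mean of 0.02 ± 0.11 and an interval of -0.11 to 0.15 (adjusted p = 0.811). Pdia4, a protein disulfide isomerase of the ER, had log2 ratios of -0.14, -0.45 and -0.22. All 3 were below 0, with pool 2 the lowest, and the mean of -0.27 ± 0.16 was 1.21-fold lower (adjusted p = 0.0215). Without pool 2 its mean was -0.18 and it no longer passed the threshold (adjusted p = 0.0630).

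Herpud1, an ER membrane protein that assembles the ubiquitin ligase complex for ER-associated degradation, showed the largest decrease of the 10. Its log2 ratio was -1.48, -0.84 and -0.78 in the 3 pools. Pool 1 was well below the other 2, and the mean of -1.03 ± 0.39 was 2.05-fold lower in treated livers (interval -1.37 to -0.70, adjusted p = 0.00289). It ranked 37 from the lowest of all 16871 genes. Without pool 1 its mean was -0.81 (adjusted p = 0.00225).

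The transcription factors of the response moved little. Xbp1 had log2 ratios of 0.14, -0.11 and 0.21, with a mean of 0.08 ± 0.17 and an interval of -0.09 to 0.25 (adjusted p = 0.386). The probe sequence was not used here, so spliced and unspliced Xbp1 mRNA were not told apart. Atf4 had log2 ratios of -0.30, -0.22 and -0.11, all below 0, with a mean of -0.21 ± 0.10 (adjusted p = 0.0198). Ddit3, which encodes the cell-death factor CHOP, had log2 ratios of 0.16, 0.21 and 0.19, all above 0, with a mean of 0.19 ± 0.02, 1.14-fold higher in treated livers (adjusted p = 0.0129).

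The 2 calls on the ATF4 side were lost without pool 1 and without pool 2. Those fits called fewer genes over the whole array (4025 without pool 1 and 4935 without pool 2, against 7318). Without pool 1, Atf4 had a mean of -0.16 (adjusted p = 0.124) and Ddit3 of 0.20 (adjusted p = 0.0675). Without pool 2, they had means of -0.21 (adjusted p = 0.0784) and 0.18 (adjusted p = 0.0564). Both calls were kept without pool 3, in a fit that called 6244 genes. There Atf4 had a mean of -0.26 (adjusted p = 0.0168) and Ddit3 of 0.19 (adjusted p = 0.0377). The decreases of Herpud1, Hspa5, Manf and Creld2 passed the threshold with any 1 pool left out.

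**Figure D1:**
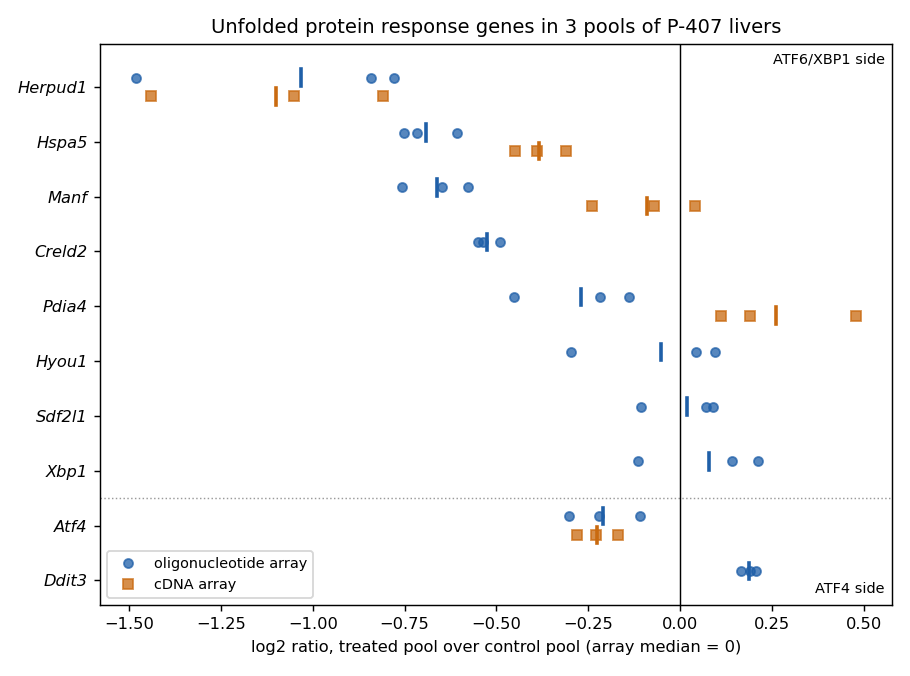
Log2 ratio of treated over control livers (horizontal axis) for the 10 genes, with circles for the 3 oligonucleotide arrays, squares for the 3 cDNA arrays and a vertical bar for each mean. Herpud1, Hspa5, Manf and Creld2 lie left of 0 in all 3 pools of the oligonucleotide array, while Hyou1, Sdf2l1 and Xbp1 straddle 0.

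**Figure D2:**
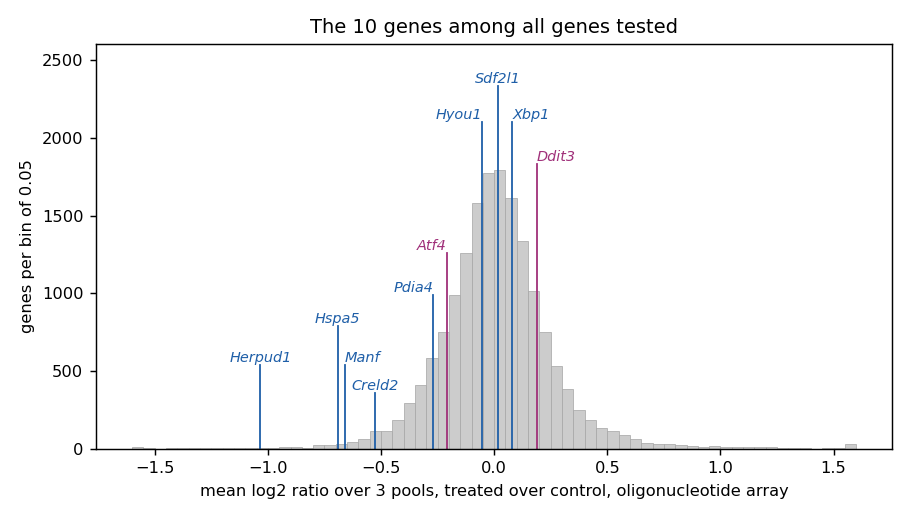
Number of genes (vertical axis) by mean log2 ratio of treated over control on the oligonucleotide array (horizontal axis), with the 10 genes as vertical lines whose heights carry no value, blue for the ATF6/XBP1 side and purple for the ATF4 side. The end bins hold all genes beyond the plotted range, and Herpud1 at -1.03 lies in the thin lower tail while Sdf2l1 at 0.02 lies at the centre.

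The plot of the 10 genes by pool shows a split within the ATF6/XBP1 side, and the plot over all genes places it against the whole array. Averaged over its 8 genes, the ATF6/XBP1 side had a log2 ratio of -0.41, -0.43 and -0.34 in the 3 pools, a mean of -0.39 ± 0.05 (SD, n = 3). The 2 genes of the ATF4 side averaged -0.07, -0.01 and 0.04, a mean of -0.01 ± 0.05, in which the lower Atf4 and the higher Ddit3 cancelled. The difference between the sides was not tested because the sides hold few and chosen genes. The median over all genes of the oligonucleotide array was 0.003. On the cDNA array the 4 measured genes of the ATF6/XBP1 side averaged -0.34, -0.31 and -0.33. There Atf4, the 1 measured gene of the ATF4 side, had -0.23, -0.28 and -0.17.

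The size of the smaller changes can be set against genes that liver is not known to use. Among 862 odorant, vomeronasal and trace amine receptor genes on the oligonucleotide array, 36.1% passed the same threshold, and 95% had an absolute log2 ratio of at most 0.41. Herpud1, Hspa5, Manf and Creld2 exceeded that size, while Pdia4, Atf4 and Ddit3 did not. The largest absolute log2 ratio of a receptor gene was 2.08, which no member exceeded.

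Whether the second array type gave the same ratios was asked for the 5 members it carries. On the cDNA array limma called 0% of the 5011 genes, with 1518 of them at an unadjusted p below 0.05, and a one-sample test without limma's shared prior called 1. The members at an unadjusted p below 0.05 were Herpud1 and Hspa5. The median SD of a gene over the pools was 0.08 on the oligonucleotide array and 0.32 on the cDNA array.

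Herpud1 had log2 ratios of -1.44, -1.05 and -0.81 on the cDNA array, a mean of -1.10 ± 0.32 (adjusted p = 0.0991). On both array types pool 1 was the lowest and pool 3 the highest. Hspa5 had -0.45, -0.31 and -0.39, all below 0, with a mean of -0.38 ± 0.07 (adjusted p = 0.148). Atf4, with a mean of -0.21 on the oligonucleotide array, had -0.23, -0.28 and -0.17 on the cDNA array, a mean of -0.23 ± 0.06 (adjusted p = 0.263).

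Manf and Pdia4 did not behave alike on the array types. Manf had log2 ratios of 0.04, -0.07 and -0.24 on the cDNA array, a mean of -0.09 ± 0.14 that lay above all of its oligonucleotide values (adjusted p = 0.649). Pdia4 had 0.48, 0.19 and 0.11, all above 0 where all 3 oligonucleotide values were below, with a mean of 0.26 ± 0.19 (adjusted p = 0.278). The difference between array types, oligonucleotide minus cDNA, was -0.57 for Manf (adjusted p = 0.0430) and -0.53 for Pdia4 (adjusted p = 0.0786), in a limma fit that called 11.4% of 4702 genes. With the pool as a replicate block the fit called 0 genes (1317 at an unadjusted p below 0.05) and Manf had an adjusted p of 0.144. Manf also did not pass without pool 1 (-0.51, adjusted p = 0.322) or pool 2 (-0.51, adjusted p = 0.279). The difference was 0.07 for Herpud1, -0.31 for Hspa5 and 0.02 for Atf4, none past the threshold.

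With both arrays of each pool averaged, Hspa5 was lower at -0.54 ± 0.04 (SD, n = 3 pools, adjusted p = 0.0435), in a fit that called 2.64% of genes lower and 2.47% higher (5.1% in all). With 1 pool left out its mean was -0.51, -0.54 and -0.56 and it did not pass, in fits that called 0 genes without pool 1 or pool 2 and 373 without pool 3. Herpud1 had the larger mean of -1.07 ± 0.35 and lay just outside the threshold (adjusted p = 0.0501). Manf had -0.38, Atf4 -0.22 and Pdia4 -0.005, and none of these passed.

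**Figure D3:**
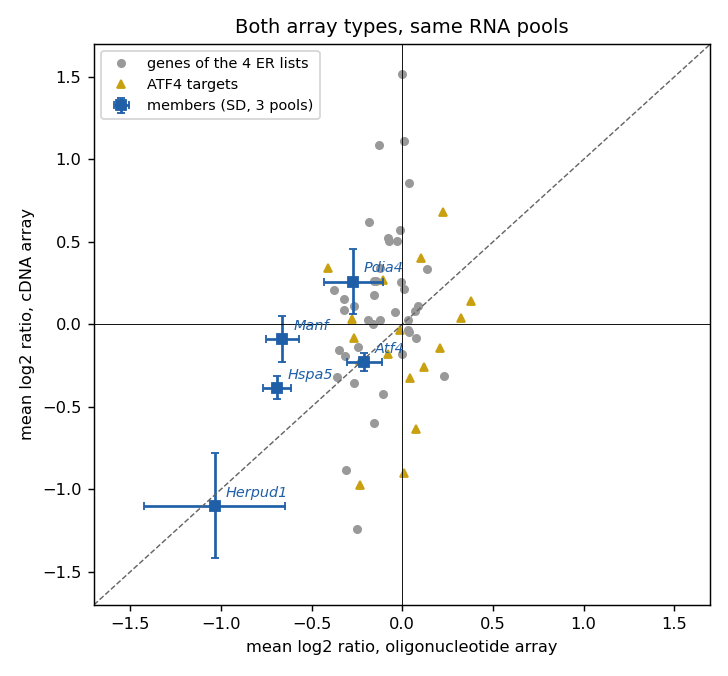
Mean log2 ratio of treated over control on the oligonucleotide array (horizontal axis) and on the cDNA array (vertical axis) for the 5 members on both, as blue squares with SD over 3 pools, 41 genes of the ER lists and 17 ATF4 targets. Herpud1 and Atf4 lie near the dashed line of equal ratios, and Pdia4 at -0.27 and 0.26 lies on opposite sides of 0.

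The wider set of genes around the response, also chosen with earlier results of these data known, held 162 genes in 9 lists, members left out. On the oligonucleotide array 152 of them were measured. Of these, 48 were lower (31.6%) and 20 higher (13.2%), against 21.4% and 22% over all genes, with a median log2 ratio of -0.05. Without pool 2 the lower count was 31, where 14.2% of all genes were lower, and without pool 1 the higher count was 10, where 11.8% of all genes were higher. On the cDNA array 68 were measured, limma called 0 (15 at an unadjusted p below 0.05), and the median was 0.03. Of 41 genes of the ER lists on both array types, 16 had the same sign on both.

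Among the sensors, Atf6 had log2 ratios of -0.24, -0.29 and -0.14 and was lower at -0.22 ± 0.08 (adjusted p = 0.0131). On the cDNA array Atf6 had a feature at -0.46, -0.34 and -0.31 and another at -0.34, 0.89 and -0.02. Their mean of -0.10 did not pass there (limma, adjusted p = 0.734). Atf6b, a relative of Atf6, was higher at 0.15 ± 0.03 (adjusted p = 0.0274) on the oligonucleotide array, while its cDNA mean was -0.37. On the oligonucleotide array Ern1 had 0.01, 0.04 and -0.25 (adjusted p = 0.448), and Eif2ak3 had -0.03, 0.06 and 0.22 (adjusted p = 0.273), so neither passed. Eif2ak3 had 3.59 in pool 1, no value in pool 2 and 0.55 in pool 3 on the cDNA array, and was not tested there. The related ER-bound factor Creb3l4 was higher at 0.55 ± 0.11 (adjusted p = 0.00123).

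ER chaperones other than the members numbered 14, of which 6 were lower and 2 higher, with a median of -0.12. Hsp90b1, the ER form of HSP90, fell by 0.32 on the log2 scale (adjusted p = 0.00374). The BiP cochaperones Dnajb9 and Dnajc3 fell by 0.38 and 0.32. On the cDNA array Hsp90b1 and Dnajb9 were above 0 in all 3 pools, with means of 0.16 and 0.21, while Dnajc3 had a mean of -0.19, and none of the 3 passed there. On the oligonucleotide array Serpinh1, a chaperone specific to collagen, rose by 0.58 ± 0.26 (adjusted p = 0.00563). All 9 stellate cell and fibroblast markers also rose there, among them the collagen gene Col3a1 at 0.85. On the cDNA array 6 of these markers were measured and none passed. Mgp, Col1a1, Col1a2 and Lrat had means above 0, and Acta2 and Des had means of -0.20 and -0.18.

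Of 19 genes of oxidative folding, 7 were lower and 1 higher, with a median of -0.07. Without pool 2 the lower count was 3, a share near the 14.2% of all genes in that fit. P4hb, a protein disulfide isomerase, was at -0.36 ± 0.03 and Fkbp14, a prolyl isomerase, at -0.42 ± 0.13. The sulfhydryl oxidase Qsox1 was the gene that rose, to 0.49 ± 0.05 (adjusted p = 9.45e-04). Of 21 measured genes of ER-associated degradation, 7 were lower and 0 higher, with a median of -0.08. They included Derl2, a channel component, at -0.26, and the lectin Os9 at -0.23. The lower count was 2 without pool 1 and 3 without pool 2, where 12% and 14.2% of all genes were lower, so with either pool left out the list's share was near that of all genes.

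Translocation, glycosylation and traffic had 35 measured genes, of which 13 were lower and 0 higher, with a median of -0.10. The cargo receptor Lman1 was at -0.35 ± 0.09, Srp54a of the signal recognition particle at -0.36 ± 0.10 and the KDEL receptor Kdelr2 at -0.31 ± 0.06. Without pool 2 or without pool 3 the lower count was 8, where 14.2% and 18.2% of all genes were lower.

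The eIF2alpha kinases and phosphatase subunits did not move one way. The stress kinases Eif2ak1 and Eif2ak4 were higher at 0.18 and 0.19, although Eif2ak4 had -2.88, -1.45 and 0.01 on the cDNA array, a mean of -1.44 that did not pass there. On the oligonucleotide array the phosphatase subunit Ppp1r15b was lower at -0.24 (adjusted p = 0.00648). Of 38 measured ATF4 targets, 12 were lower and 10 higher, with a median of -0.001, and without pool 1 the higher count was 6. Cebpb, a liver transcription factor, fell by 0.93 (adjusted p = 8.64e-04), and Cth, which makes cysteine, fell by 0.62. Phgdh, of serine synthesis, rose by 0.60, while Shmt2, of mitochondrial one-carbon metabolism, fell by 0.41 with a cDNA mean of 0.34. The aminoacyl-tRNA synthetases among the targets held 7 lower and 0 higher genes of 11, with a median of -0.23. The other 27 held 5 lower and 10 higher, and over all genes 21.4% were lower and 22% higher. The synthetases were set apart after their values were seen, so the contrast with the other targets is no test. On the cDNA array Tars, Eprs, Mars1 and Wars had means of 0.40, 0.03, -0.08 and -0.22, and none passed.

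Of 11 genes of ER stress cell death, 3 were higher (27.3%) and 1 lower (9.09%), against 22% and 21.4% over all genes. The higher share was thus near that of all genes. The BCL2 family genes Bak1 and Bbc3 were at 0.31 and 0.57, and the death receptor Tnfrsf10b at 0.26. The kinase Mapk8 was at -0.22. The heat shock genes of the cytosol and mitochondria, which respond to HSF1 rather than to the ER sensors, held 9 lower and 1 higher of 14, with a median of -0.48, below that of each ER list. The HSP70 gene Hspa1a was at -0.97 ± 0.14, its cochaperone Dnajb1 at -0.73 ± 0.12 and Bag3 at -0.70 ± 0.12, and their cDNA means were -1.15, -1.04 and -0.81.

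**Figure D4:**
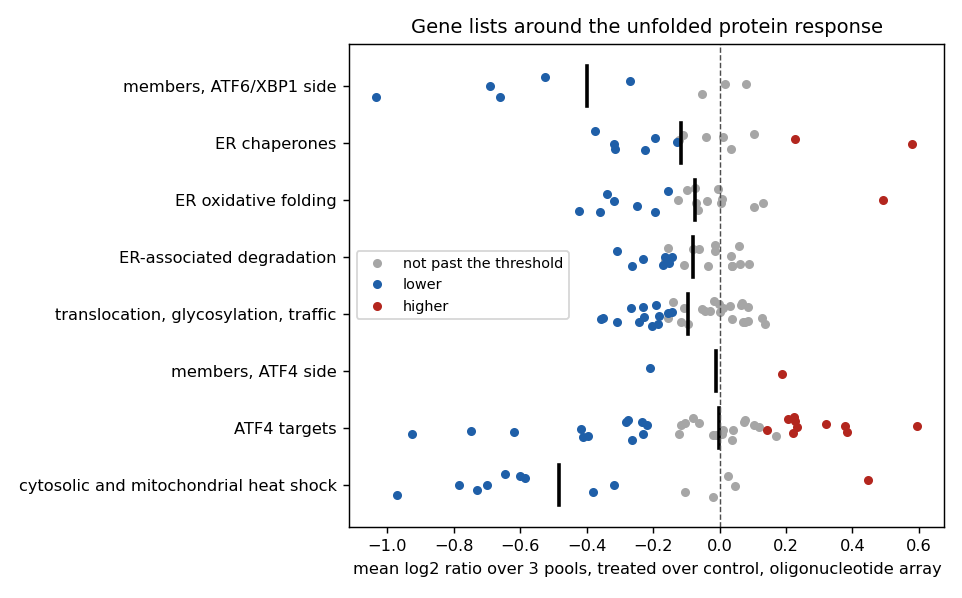
Mean log2 ratio over 3 pools of treated over control on the oligonucleotide array (horizontal axis) for each gene of 8 lists, coloured by the test, with a black bar for the list's median and a dashed line for the median of all genes. The ATF6/XBP1-side members have a median of -0.40 and the other ER lists medians of -0.12 to -0.07.

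As the plot of the lists shows, the ATF6/XBP1-side members were spread more widely below 0 than the ER lists. A promoter match did not separate the ER lists: the 8 genes with an ERSE or ERSE-II held 2 lower and 0 higher with a median of -0.08, and the 65 without held 25 lower and 2 higher with a median of -0.10. Outside the members, 19 genes with an ERSE were tested, of which 5 were lower (26.3%) and 1 higher (5.26%). Over all genes 21.4% were lower and 22% higher. Of 6 tested genes with an ERSE-II outside the members, 1 was lower and 2 were higher. ATF4 targets with a CARE held 1 lower and 4 higher of 10, and those without held 7 lower and 5 higher of 20. Of all 410 tested genes with a CARE outside the members, 20% were lower and 20.7% higher.

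Markers of several cell types moved with the treatment on the oligonucleotide array. Hepatocyte markers held 7 lower and 1 higher of 15, with pool means of -0.31, -0.37 and -0.32, beside -0.41, -0.43 and -0.34 for the ATF6/XBP1 side. Within that list Alb, Ahsg and Serpina1d carried the same log2 ratios of -0.05, -0.21 and -0.57 in the 3 pools. Each of these 3 genes entered the hepatocyte pool means, so the means count 1 repeated set of values 3 times. Macrophage markers held 9 higher and 4 lower of 13, with pool means of 1.22, 0.97 and 1.10. Gpnmb at 4.63 and Trem2 at 4.31 were the highest. The 4 lower were Cd163 at -1.77, Marco at -1.24, Itgam at -0.43 and Vsig4 at -0.17. Plasma and B cell markers held 5 higher and 0 lower of 10, with pool means of 0.25, 0.16 and 0.17. The 5 included the plasma cell gene Jchain and the B cell genes Ms4a1 and Cd79b. Sdc1, Irf4, Mzb1, Cd79a and Tnfrsf17 did not pass, at -0.14, -0.17, -0.06, -0.01 and 0.01. On the cDNA array Ms4a1 and Cd79b lay below 0 in all 3 pools, with means of -0.64 and -1.12 that did not pass. Of these cells, plasma cells express ER chaperones strongly. All 7 neutrophil and 5 of 9 T and NK cell markers were higher. Lower endothelial markers numbered 2 of 7 (28.6%) and higher cholangiocyte markers 1 of 4 (25%). Over all genes 21.4% were lower and 22% higher, so the endothelial and cholangiocyte shares were near those of all genes. The files hold ratios and no levels, and the part of these markers in the results was not tested.

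The genes whose 3 oligonucleotide log2 ratios lay nearest to the mean of the ATF6/XBP1 side, over 3 pools, were Zfp959, Zc3h12d, Rmdn3, Xkr6 and Zcchc24. Their root mean square differences from it were 0.0051 for Zfp959 and 0.013 for Zcchc24, the nearest and the farthest of the 5. The side's mean lay between Creld2 at -0.53 and Pdia4 at -0.27, so it was the profile of no member. In all, 292 genes had a mean log2 ratio between -0.40 and -0.35. Nearness on 3 values therefore does not show a shared role.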

How the data were processed

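The deposited values are 1 log ratio per feature and array, taken here as log2. Per the labels' protocols, RNA was labelled directly (10 ug, cDNA array) or after amplification (0.5 ug, oligonucleotide array). The authors' background correction, normalization and filters are not stated in the sources used here. With no intensities among the deposited values, signal over background is unknown, and precision is limited by the number of arrays.

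A value of exactly 0 was taken as missing, and the median of the remaining features was subtracted from each array. Features were named from the platform annotation: 18658 of 22575 oligonucleotide and 7410 of 13482 cDNA features named 1 gene, 30 and 438 named several, and 3887 and 5634 none. Features of a gene were averaged, and a gene had to be measured on every array of its type. Each array type was fitted with limma 3.58.1 in R 4.3.3 (lmFit and eBayes of the mean against 0), with Benjamini-Hochberg adjustment over all genes and a threshold of 0.05. Control RNA came from 1 pool, treated as 1 sample, so p-values measure only the spread between the treated pools. Pool numbers pair the arrays because aliquots of the same RNA went onto both, per the series' design text. The correlation of the paired arrays' deviations was 0.06, 0.07 and 0.07 over 4702 genes. Motifs and figures were made with Python 3.11.15, pandas 2.3.3 and matplotlib 3.10.9, and the fits were tested on simulated data.

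The members and the 20 gene lists were chosen with earlier results of these data known. Named genes were all members, the 3 sensors Ern1, Eif2ak3 and Atf6, up to 4 genes of each other list with the smallest p past the threshold on the oligonucleotide array, and the 5 genes nearest to the ATF6/XBP1 side. Outside this rule, and after their values were seen, Alb, Ahsg and Serpina1d were named for their shared ratio, and Spcs1, Erp29 and Ppp1r15a for their difference between array types. Further markers of plasma and B cells, macrophages and stellate cells, and aminoacyl-tRNA synthetases on the cDNA array, were named in the same way. Alternatives were no centring, zeros kept, each feature by itself, scaled arrays, a robust prior, no shared prior, a value on 2 cDNA arrays, the pool as a block and leaving out each pool.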

Additional observations from a re-analysis of the deposited data

Results flagged for a closer look

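The 2 array types read the same RNA, and the log2 ratio of treated over control differed between them for 9 genes of the response or of its wider lists in a limma fit without a block. None of the 9 passed with the pool as a replicate block, the fit that follows the pairing of the arrays, or with pool 1 or pool 2 left out, fits that called 0 genes in all (1317, 751 and 914 at an unadjusted p below 0.05). Manf differed by -0.57 (oligonucleotide minus cDNA). Among the ER lists, Dnajb9 differed by -0.59, Hsp90b1 by -0.48 and the signal peptidase subunit Spcs1 by -0.54, each with the lower ratio on the oligonucleotide array. Fkbp2 differed by 0.99, Kdelr2 by 0.58, Erp29 by 0.54, the eIF2alpha phosphatase subunit Ppp1r15a by 0.91 and Atf6b by 0.52, each with the lower ratio on the cDNA array. Pdia4 differed by -0.53 with its 3 pools on opposite sides of 0, and this difference did not pass the threshold (adjusted p = 0.0786, limma). The RNA was amplified for the oligonucleotide array only, and the part of this in the differences was not tested.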

How the results depend on the processing

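With limma's shared prior left out, the genes called on the oligonucleotide array numbered 40 against 7318, with 6231 at an unadjusted p below 0.05, and the members called were 0 lower and 0 higher against 6 and 1, with 5 at an unadjusted p below 0.05. On the cDNA array the same change gave 1 gene against 0. Leaving out 1 pool gave 4025 to 6244 genes on the oligonucleotide array, 4 to 6 members lower and 0 to 1 higher. The wider lists held 31 to 42 lower and 10 to 19 higher genes, against 48 and 20, and 0 and 0 on the cDNA array. For pool means over both array types the count was 240, against 0 with zeros kept as 0 (1755 unadjusted), 0 without the prior (1186 unadjusted) and 0 to 373 with 1 pool left out. The members lower there numbered 1, against 2 without centring, 0 with zeros kept, 0 without the prior and 0 to 0 with 1 pool left out. The difference between array types was called for 537 genes and 1 member, against 0 and 0 with the pool as a replicate block (1317 genes and 2 members unadjusted), and for 0 to 1077 genes and 0 to 1 members with 1 pool left out.

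Values near 0 changed sign when a pool was left out. Sdf2l1 ranged from -0.018 to 0.079 and Hyou1 from -0.13 to 0.070 on the oligonucleotide array, Pdia4 from -0.092 to 0.058 in the pool means, and the array type difference from -0.0042 to 0.12 for Herpud1 and -0.0058 to 0.060 for Atf4. No member on the oligonucleotide array changed its call without centring, with zeros kept, with a robust prior, with scaled arrays or with each feature by itself.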
